A study of Mus musculus with 12 samples.

Results

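The Rab GTPases of the mouse nucleus accumbens are described here through 58 genes, out of 18820 different gene symbols measured. They were taken by name: a symbol made of Rab, a number and at most a letter or a letter with a digit, which leaves out Rab-binding proteins such as Rab3gap1 and Rab11fip2. The 58 symbols lay on 61 of the 21218 rows of the array table that carry exactly 1 symbol, since Rab2a, Rab5b and Rab11b each had a further row, and the row with the highest mean over the 12 arrays stood for such a gene. Rab26 is no member, because its row also carries Traf7.

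The tissue came from C57BL/6N mice at 12 weeks of age. In the poly(I:C) group (6 arrays) the mother had received poly(I:C), an artificial duplex RNA that sets off an antiviral response, at 5 mg/kg into a vein on gestation day 17. In the control group (6 arrays) the mother had received saline by the same route on that day. Offspring of both groups had gone through behavioural tests as adults, so both carry that experience, and neither carries a transgene or deletion named in the labels. RNA of the micro-dissected accumbens, 250 ng an array, was measured on Affymetrix Mouse Gene 1.1 ST arrays, whose values are log2 signals. The comparison asks what maternal immune activation before birth leaves behind in the RNA of the adult accumbens. The labels call the 6 arrays of a group biological replicates but name no litter, so the p-values take all offspring as independent.

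The arrays resembled one another, with pairwise correlations from 0.991 to 0.997 and medians from 4.78 to 4.85. Genes of medium spiny neurons, the main neurons of the accumbens, were bright on every array, with Ppp1r1b (DARPP-32) from 9.36 to 9.88 and Penk (enkephalin) from 11.0 to 11.3. Xist, which female cells express, was between 2.85 and 3.05 on all 12 arrays, where the Y-linked Kdm5d was between 6.31 and 6.68. Tissue around the accumbens was present to different extents: the mean signal of 8 cortical neuron genes ran from 5.83 to 6.65 in poly(I:C) offspring and from 5.32 to 6.48 in controls, and that of 11 choroid plexus and ependymal genes from 4.67 to 4.87 in poly(I:C) offspring and from 4.80 to 6.61 in controls. At an unadjusted limma p under 0.05, 5 of these cortical genes were higher in poly(I:C) offspring and 0 lower. Of the choroid plexus and ependymal genes 4 were lower and 0 higher. The mean of 10 septal and pallidal genes ran from 5.555 to 6.17 in poly(I:C) offspring and from 5.62 to 6.28 in controls. Of these genes 1 was higher and 3 were lower at that threshold. Single genes varied more over the 12 arrays, the cortical Slc17a7 from 5.23 to 9.5 and the choroid plexus gene Ttr from 4.82 to 10.9. The mean of 11 genes of myelin and mature oligodendrocytes ran from 7.63 to 7.79 in poly(I:C) offspring and from 7.77 to 8.36 in controls, with 10 of them lower in value at an unadjusted limma p under 0.05, and its part in the Rab values was not tested. In a tissue sample like this, fewer cells of a type and less RNA per cell cannot be told apart.

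Rab proteins are small GTPases that mark the membranes of the secretory and endocytic routes. Loaded with GTP by an exchange factor, a Rab binds effectors that move, tether or fuse vesicles. A GTPase-activating protein then ends the signal, and a dissociation inhibitor lifts the prenylated, GDP-bound Rab off the membrane. In neurons they serve the release of transmitter, the recycling of receptors at synapses and the transport of endosomes and lysosomes along axons.

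No Rab gene differed between poly(I:C) and control offspring at the adjusted threshold. Of the 58 members 0 had a limma adjusted p under 0.05, where 13 of all 21218 rows (0.0613%) had one, and the lowest adjusted p of a member was 0.160. At an unadjusted p under 0.05 there were 7 members (12.1%), against 14.4% of all rows. Of these, 4 had the higher mean in poly(I:C) offspring (6.90% of the members, against 7.83% of all rows) and 3 had the lower one (5.17%, against 6.57%). For 0 members did all arrays of one group lie above those of the other, where 1.13% of all rows showed this. The exact permutation test over all splits of 12 arrays into 6 and 6 also gave an unadjusted p under 0.05 for 7 members, with Rab14 in place of Rab24.

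The intervals of the differences rest on the spread between offspring, taken as independent, and were narrow for most members. The widest was that of Rab2b, from -0.10 to 0.77. The 95% interval of the log2 difference lay within 0.25 either side of 0 for 47 of the 58 members (81.0%), as it did for 81.4% of all rows. The median size of the difference, whatever its sign, was 0.061 for the members, 0.048 for all rows and 0.067 for the rows at or above the median signal of 5.47, where 43 of the members lie. For 38 members (65.5%) the poly(I:C) mean was the higher one, and over all rows this held for 50.9%. The median log2 difference was 0.025 for the members and 0.0016 for all rows.

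**Figure D1:**
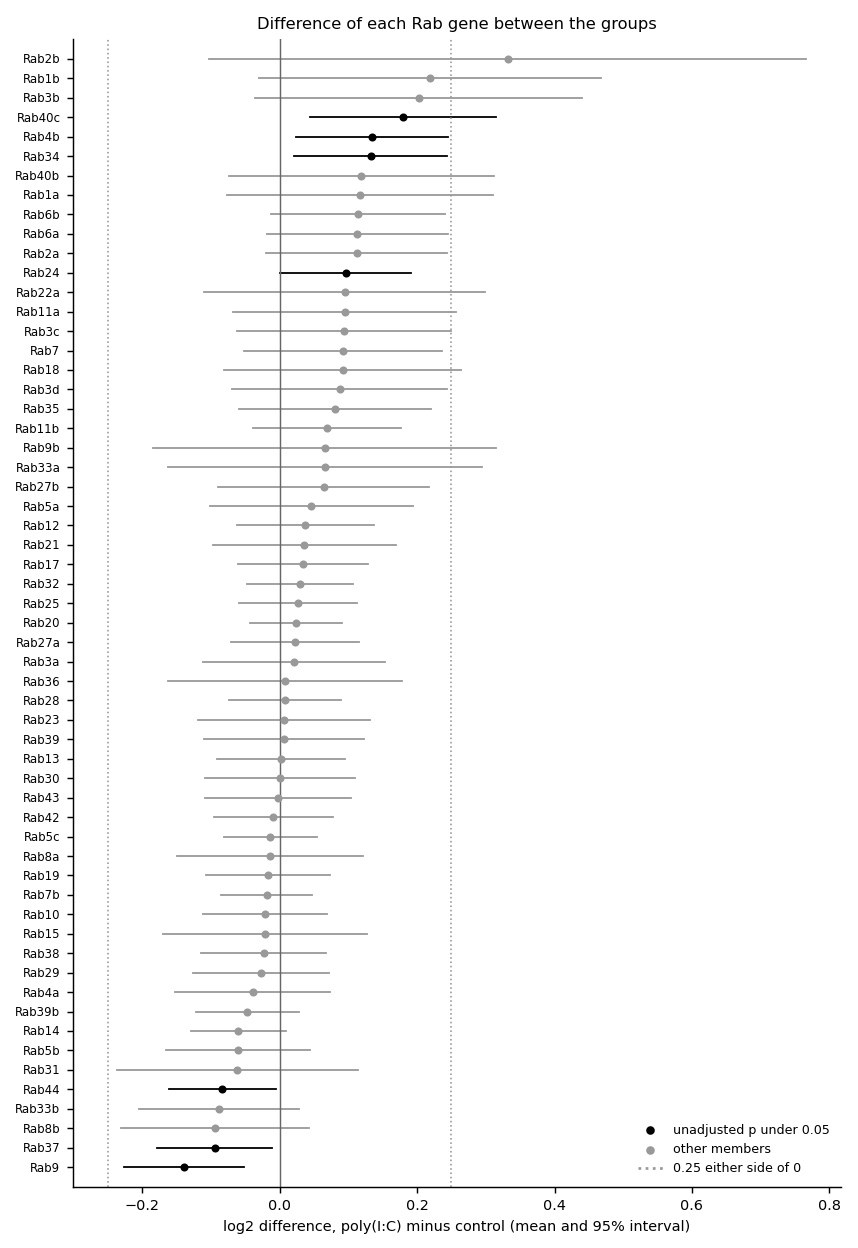
Log2 difference between poly(I:C) and control offspring for each of the 58 Rab genes, with points for the estimate and bars for the 95% interval of the limma fit (6 arrays a group). Black marks the 7 genes with an unadjusted p under 0.05, from Rab40c at 0.18 to Rab9 at -0.14, and Rab2b, at 0.33, has the widest interval.

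The Rabs of late endosomes and lysosomes held the member with the smallest p. Among 9 such genes the poly(I:C) mean was the higher one for 5 and the lower one for 4, with a median log2 difference of 0.029. Rab9, which works in the return of mannose 6-phosphate receptors from late endosomes to the Golgi, had a lowest, median and highest signal of 7.61, 7.69 and 7.77 in poly(I:C) offspring, against 7.76, 7.80 and 7.97 in controls. Of its 6 poly(I:C) arrays 5 lay below every control array, and poly(I:C) 5 lay just inside the control range. Its mean was 7.69 ± 0.055 in poly(I:C) offspring and 7.82 ± 0.074 in controls (SD, n = 6 each), a log2 difference of -0.14 (95% interval -0.23 to -0.052, limma unadjusted p = 0.00423, adjusted p = 0.160, exact permutation p = 0.00433). With the mean signals of cortical, septal and pallidal, and choroid plexus genes as covariates the difference was -0.087 and the unadjusted limma p 0.134, the only 1 of 23 alternative settings in which it was 0.05 or more. The mean of the myelin and oligodendrocyte genes was not among these covariates.

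Rab24, which is linked to autophagy, ran from 6.99 over a median of 7.09 to 7.20 in poly(I:C) offspring and from 6.90 over 7.01 to 7.08 in controls. The groups overlapped, 3 of the 6 poly(I:C) arrays lay above every control, and the log2 difference was 0.096 (95% interval 0.00074 to 0.19, limma unadjusted p = 0.0485, adjusted p = 0.343). The exact permutation test gave it p = 0.0584, and in 15 of 23 alternative settings its unadjusted limma p was 0.05 or more. Rab7, the main Rab of late endosomes and their fusion with lysosomes, was the brightest of the group, with 9.12, 9.21 and 9.27 as lowest, median and highest in poly(I:C) offspring and 8.88, 9.16 and 9.29 in controls. Its difference of 0.092 had an interval of -0.052 to 0.24. The X-linked Rab9b, a close relative of Rab9, had a difference of 0.066 (-0.18 to 0.32), opposite in sign to that of Rab9. Rab12 was at 0.037, Rab29, which acts with the kinase Lrrk2 at the Golgi and lysosomes, at -0.027, and the dim members Rab7b, Rab32 and Rab38 lay between -0.023 and 0.029.

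Rabs of regulated secretion gave 1 unadjusted call, in a dim gene, where 14.4% of all rows had an unadjusted limma p under 0.05. There were 7 such genes, 6 higher and 1 lower in value, with a median log2 difference of 0.064. Rab3a, the main Rab of synaptic vesicles, ran from 8.84 over a median of 9.16 to 9.24 in poly(I:C) offspring and from 9.01 over 9.11 to 9.20 in controls. The poly(I:C) arrays spanned the whole control range, and the log2 difference was 0.021 (95% interval -0.11 to 0.15). With the 3 tissue means as covariates it was -0.10, on the other side of 0.

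Its paralog Rab3b stood at 8.25 ± 0.23 in poly(I:C) offspring and 8.04 ± 0.21 in controls (SD, n = 6 each), a difference of 0.20 (-0.035 to 0.44, limma unadjusted p = 0.0895). Rab3c had a difference of 0.094 and Rab3d, a Rab of secretory granules, 0.087, each with an interval that includes 0. Rab37, a Rab of secretory granules outside the brain, had 3.94, 3.97 and 4.04 as lowest, median and highest in poly(I:C) offspring, against 3.93, 4.07 and 4.17 in controls. Control 4, at 3.93, lay below all poly(I:C) arrays, and the other 5 controls lay above all of them. The log2 difference was -0.095 (95% interval -0.18 to -0.012, limma unadjusted p = 0.0281, adjusted p = 0.289), at a signal that only 25.3% of all rows do not exceed, and the unadjusted p was 0.05 or more in 6 of 22 alternative settings. Rab27a and Rab27b, which act in the release of granules and exosomes, were at 0.023 and 0.064.

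Of 12 Rabs of early endosomes and fast recycling, 7 were higher and 5 lower in value, with a median log2 difference of 0.029. Rab4b, of the Rab4 pair that returns receptors quickly to the surface, had 8.26, 8.42 and 8.55 as lowest, median and highest in poly(I:C) offspring, against 8.11, 8.32 and 8.35 in controls. Of its 6 poly(I:C) arrays 5 lay above every control, and poly(I:C) 6 lay inside the control range. The log2 difference was 0.13 (95% interval 0.024 to 0.25, limma unadjusted p = 0.0208, adjusted p = 0.264). The unadjusted limma p was 0.05 or more in 4 of 23 alternative settings, with its highest value of 0.378 with the 3 tissue means as covariates. Its paralog Rab4a was at -0.039 (-0.15 to 0.074), on the other side of 0.

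The Rab5 genes, which drive the fusion of early endosomes, differed by little: Rab5a by 0.046, Rab5b by -0.061 and Rab5c by -0.014 on the log2 scale. Rab5c had the narrowest interval of these, -0.081 to 0.054. Rab15, which slows traffic through early endosomes, was the brightest of the group, with 9.02, 9.17 and 9.22 as lowest, median and highest in poly(I:C) offspring and 8.93, 9.21 and 9.36 in controls. The poly(I:C) arrays lay inside the control range, and the difference was -0.021 (-0.17 to 0.13). Rab35, which also recycles cargo to the surface, stood at 0.080, Rab22a at 0.095, Rab21 at 0.036 and Rab31 at -0.062. The dim Rab17 and Rab20 were at 0.034 and 0.024.

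Among 8 Rabs of recycling endosomes and of delivery to the surface 0 had an unadjusted limma p under 0.05, against 14.4% of all rows. In value 4 genes were higher and 4 lower. Rab14, which carries cargo between Golgi and endosomes, had the smallest limma p of the group, with 8.98, 9.04 and 9.10 as lowest, median and highest in poly(I:C) offspring and 9.05, 9.10 and 9.15 in controls. Of its 6 poly(I:C) arrays 3 lay below every control, and the log2 difference was -0.060 (95% interval -0.13 to 0.0095, limma unadjusted p = 0.0850, exact permutation p = 0.0368). Rab10 was the brightest, with a difference of -0.021 (-0.11 to 0.069). Rab11a and Rab11b, the Rabs that define recycling endosomes, were at 0.094 and 0.069, Rab8b at -0.094 and Rab8a at -0.014. Rab13 and Rab25, known from epithelia, were dim and lay at 0.0019 and 0.026.

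Rabs of the endoplasmic reticulum and Golgi were the largest group, with 12 of 16 genes higher in value, a median log2 difference of 0.079 and 1 unadjusted call. Of all rows 50.9% were higher in value and 14.4% had an unadjusted limma p under 0.05. Rab34, a Golgi Rab that also takes part in forming cilia, had 5.46, 5.51 and 5.69 as lowest, median and highest in poly(I:C) offspring, against 5.32, 5.40 and 5.57 in controls. The groups overlapped, and the log2 difference was 0.13 (95% interval 0.021 to 0.24, limma unadjusted p = 0.0227, adjusted p = 0.271, exact permutation p = 0.0325), with an unadjusted limma p of 0.05 or more in 6 of 23 alternative settings. Rab2a was the brightest member of the whole family, with 10.32, 10.36 and 10.48 in poly(I:C) offspring and 10.04, 10.32 and 10.44 in controls, and differed by 0.11 (-0.019 to 0.24). Rab6a and Rab6b, which act in transport from and back to the Golgi, each had a difference of 0.11, and Rab6b had a limma unadjusted p of 0.0752. Rab1a and Rab1b, which bring vesicles from the endoplasmic reticulum to the Golgi, were at 0.12 and 0.22, and Rab2b at 0.33, the highest difference of any member. Rab18 was at 0.091, Rab33a at 0.066, Rab33b, a Rab of the Golgi and autophagosomes, at -0.088 and the X-linked Rab39b, a neuronal Rab, at -0.047. Rab19, Rab30, Rab36, Rab39 and Rab43 lay between -0.017 and 0.0075. Many of these values moved when controls 1 and 4 were left out: the group's median was then -0.0043, Rab2b lay at -0.036, Rab1b at 0.012, Rab1a at -0.029, Rab18 at -0.033, Rab2a at 0.023 and Rab6a at 0.044. Rab34, which also had its lowest values of the 12 arrays on these controls, then lay at 0.097 (limma unadjusted p = 0.109).

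Of the 6 remaining genes 4 were higher and 2 lower in value. Rab40c, whose protein carries a SOCS box and joins ubiquitin ligases, had 7.29, 7.37 and 7.50 as lowest, median and highest in poly(I:C) offspring, against 6.96, 7.20 and 7.39 in controls. Of its 6 poly(I:C) arrays 3 lay above every control, and the log2 difference was 0.18 (95% interval 0.044 to 0.31, limma unadjusted p = 0.0129, adjusted p = 0.228). Rab40c had its lowest values of the 12 arrays on controls 1 and 4, and without them its difference was 0.11 (limma unadjusted p = 0.0661). Its relative Rab40b was at 0.12 (-0.073 to 0.31) with all arrays. Rab44, an unusually large Rab, had 5.06, 5.10 and 5.16 in poly(I:C) offspring and 5.14, 5.16 and 5.28 in controls. Of its 6 poly(I:C) arrays 4 lay below every control, and the difference was -0.083 (-0.16 to -0.0057, limma unadjusted p = 0.0373, adjusted p = 0.316). In 10 of 22 alternative settings its unadjusted limma p was 0.05 or more, and for Rab40c in 2 of 23. Rab23, a regulator of Hedgehog signalling and cilia, and Rab28 differed by 0.0060 and 0.0073, and Rab42 by -0.0092.

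**Figure D2:**
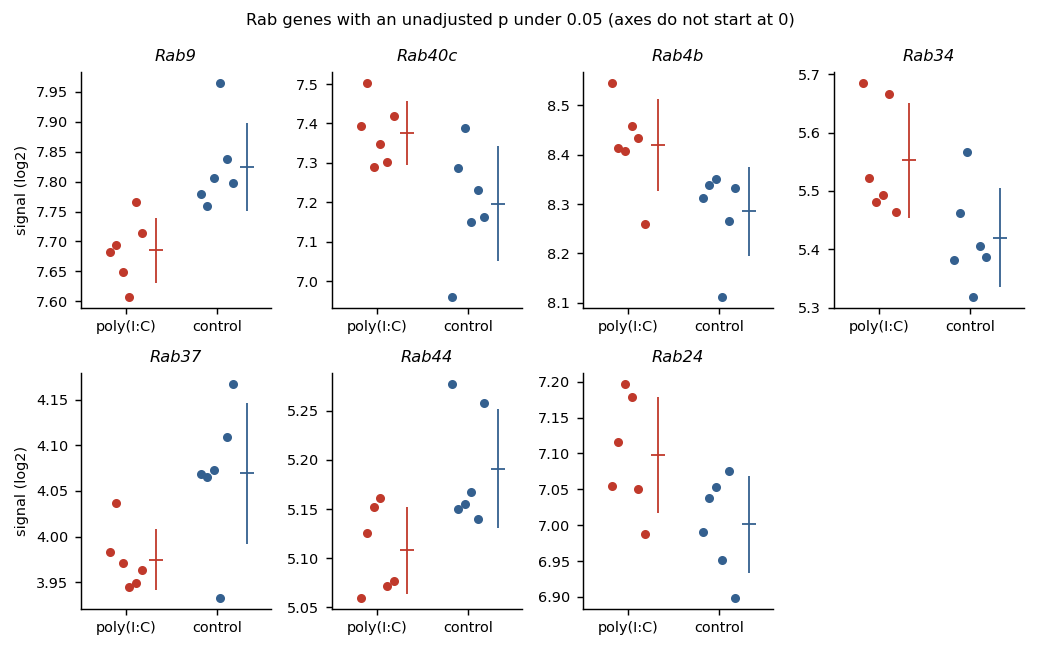
Log2 signal of the 7 Rab genes with a limma unadjusted p under 0.05, with 1 point an array, poly(I:C) offspring left and controls right, and a bar for the mean ± SD beside the points (n = 6 each). The groups overlap in every panel, and Rab9 has only poly(I:C) 5 inside the control range.

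Controls 1 and 4 held the lowest values of many Rabs. For 19 of the 58 members (32.8%) these were the lowest values of the 12 arrays, where this held for 9.38% of all rows. All 19 were at or above the median signal, which makes 44.2% of the 43 such members, against 17.0% of all rows at or above that signal. This count was made after the values were seen and has no test. The group of endoplasmic reticulum and Golgi Rabs supplied 8 of the 19.

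Rab2b showed it most, with 7.56, 7.72, 7.55, 7.71, 7.76 and 7.63 on poly(I:C) arrays 1 to 6, against 6.66, 7.66, 7.59, 6.52, 7.74 and 7.78 on control arrays 1 to 6. The other 10 arrays thus lay between 7.55 and 7.78, and controls 1 and 4 lay below them at 6.66 and 6.52. Rab1b had 9.28, 9.26, 9.16, 9.31, 9.27 and 9.32 on poly(I:C) arrays 1 to 6, against 8.65, 9.22, 9.29, 8.62, 9.29 and 9.23 on control arrays 1 to 6. Rab1a was at 9.06 and 8.89 on controls 1 and 4 and between 9.25 and 9.49 elsewhere. Rab9b was at 7.98 and 8.15 there and between 8.33 and 8.73 elsewhere, and Rab18, a Rab of the endoplasmic reticulum and lipid droplets, at 6.55 and 6.39 against 6.71 to 6.97. Not every bright member shared this: Rab5c stayed between 8.85 and 8.97 on all arrays and Rab14 between 8.98 and 9.15.

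**Figure D3:**
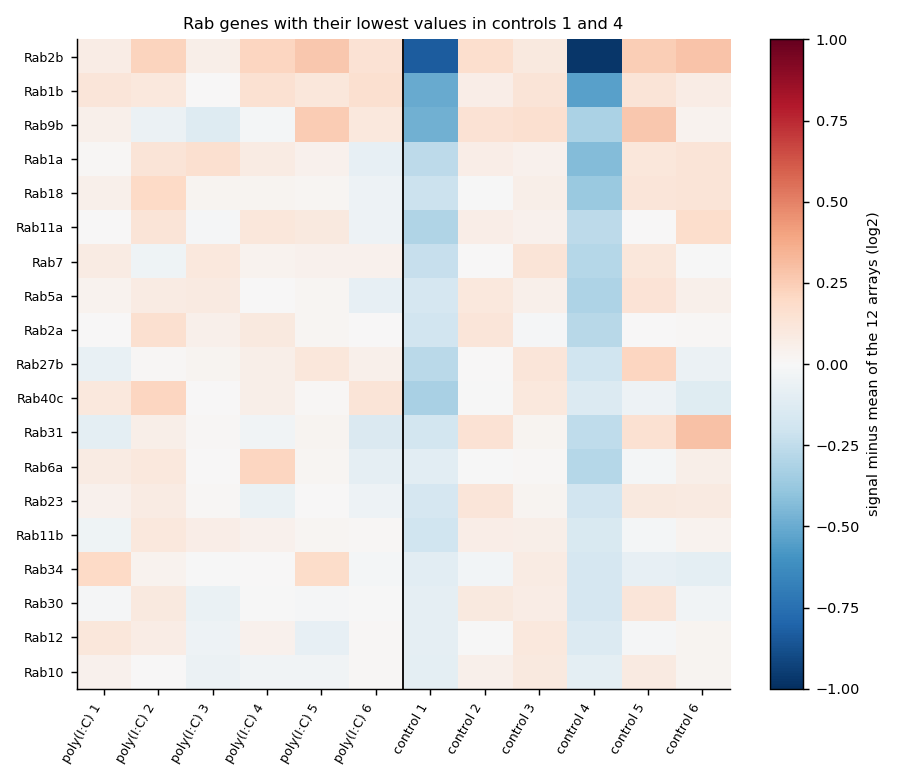
Signal of the 19 Rab genes whose lowest values were on controls 1 and 4, as the log2 difference from the gene's mean over 12 arrays, with poly(I:C) arrays left of the line and control arrays right of it. Blue columns mark controls 1 and 4, where Rab2b and Rab1b reach 6.52 and 8.62.

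Without controls 1 and 4, an alternative chosen after the values were seen, the median difference of all 58 members was -0.0041 in place of 0.025. The share of members with a higher poly(I:C) mean was 44.8% in place of 65.5%. Again 7 members had an unadjusted p under 0.05, which is 12.1% against 14.3% of all rows, and 0 had an adjusted p under 0.05. Only Rab9 and Rab37 were among the 7 in both fits. Rab9 then differed by -0.11 (limma adjusted p = 0.213), Rab37 by -0.13 with groups that no longer overlapped (limma adjusted p = 0.155), and Rab3b by 0.26 (limma adjusted p = 0.302). The lost overlap of Rab37 follows from leaving out control 4, the only control not above all its poly(I:C) arrays. The share of all rows without overlap in this comparison is not given here. The other 4, named after their values were seen, were Rab31 at -0.19, Rab33b at -0.15, Rab33a at 0.20 and Rab40b at 0.20, against -0.062, -0.088, 0.066 and 0.12 with all arrays. Rab4b, Rab24, Rab34, Rab40c and Rab44 had unadjusted limma p-values from 0.0661 to 0.139.

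The same arrays can be set against the others over all rows. Of all rows at or above the median signal, 21.7% had their lowest value on poly(I:C) 6, against 19.4% on control 1 and 17.4% on control 4. Over all members, bright and dim, the shares were 13.8% on poly(I:C) 6, 13.8% on control 1 and 32.8% on control 4. Over all rows, bright and dim, they were 16% on poly(I:C) 6, 12.5% on control 1 and 11.5% on control 4. The median over all values was 4.83 on control 1 and 4.85 on control 4, the highest of the 12. The cortical gene mean was 6.48 on control 1 and 5.54 on control 4, and the choroid plexus and ependymal mean 4.80 and 6.05, all within the range of the other arrays. The part of these measures in the low Rab values was not tested.

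The family spanned most of the measured range. Mean signals over the 12 arrays ran from 3.80 for Rab42 to 10.32 for Rab2a with a median of 7.34, and 43 members (74.1%) lay at or above the median of all rows. A row's brightness depends on its probes as well as on the transcript, so this order describes signal and not transcript number. The 5 brightest were Rab2a, Rab6b (9.67), Rab10 (9.65), Rab11b (9.61) and Rab6a (9.44), Rabs of the Golgi and of recycling endosomes. They were followed by Rab1a at 9.33 and then Rab15, Rab7, Rab1b and Rab3a between 9.12 and 9.16, which overlapped in their values over the arrays. The lowest array of Rab2a, at 10.04, lay above the highest of any other member, while Rab6b, Rab10, Rab11b and Rab6a overlapped. The places of Rab2a and Rab11b depend on the row used. Their further rows had means of 9.39 for Rab2a and 5.24 for Rab11b, the latter under the median of all rows. The 5 dimmest were Rab39 (3.91), Rab25 (3.86), Rab19 (3.85), Rab38 (3.84) and Rab42 (3.80), whose values over the arrays overlapped. Several dim members are known from other cells, Rab25 and Rab17 from epithelia and Rab38 and Rab32 from pigment cells.

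**Figure D4:**
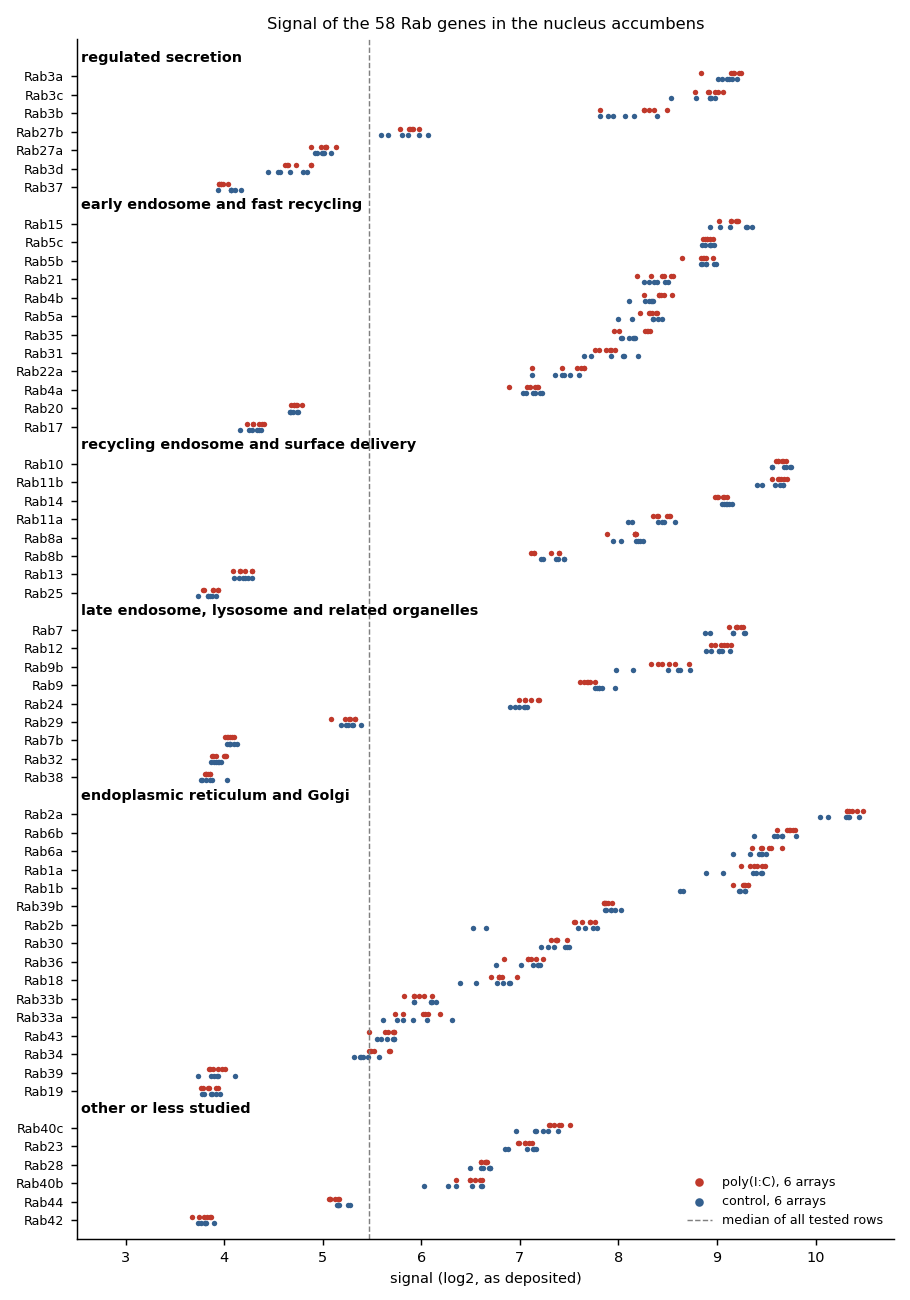
Log2 signal of the 58 Rab genes on each array, grouped by role and ordered by mean signal, with poly(I:C) arrays above control arrays for each gene. The dashed line is the median of all tested rows, 5.47, and the separate control points of Rab2b and Rab1b are controls 1 and 4.

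Rows of paralogs were unequally bright within a role. In the Rab3 group Rab3a and Rab3c stood at 9.12 and 8.90, Rab3b at 8.15 and Rab3d at 4.69. The Rab5 genes lay between 8.30 and 8.91 and the Rab11 pair at 8.40 and 9.61, while Rab27b and Rab27a were at 5.86 and 5.00. Probes of close paralogs can bind each other's transcripts, which was not tested. Spread between animals was also unequal: the SD of a member within a group had a median of 0.076 in poly(I:C) offspring and 0.097 in controls, where all rows had 0.077 and 0.088, and it was larger in controls for 37 of 58 members.

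Bright and dim Rabs also differed in the DNA before their start sites. RefSeq promoter windows of GRCm38.p6 were matched to 48 of the 58 members by symbol, and the 250 bases before the start were read. CG dinucleotides, which are frequent in the promoters of broadly expressed genes, had a median of 15.8 a gene in the Rabs. By window the median was 15 over the 60 Rab windows and 6 over all 32851 windows. The 37 matched members at or above the median signal had a median of 19.5 and the 11 dimmer ones 9. Bright and dim genes outside the family were not compared, so this need not be particular to Rabs. The windows below show a bright member (Rab10), the pair with the lowest values on controls 1 and 4 (Rab1b and Rab2b), the member with the smallest p (Rab9), and 2 dim members (Rab25 and Rab42, the dimmest). They are written 5′ to 3′ on the gene's strand, the minus strand in all 6, with CG dinucleotides in capitals, and lie at chr12:3309970-3310219 for Rab10, chr19:5106997-5107246 for Rab1b, chr14:52279396-52279645 for Rab2b, chrX:166479868-166480117 for Rab9, chr3:88548280-88548529 for Rab25 and chr4:132303357-132303606 for Rab42.
Rab10: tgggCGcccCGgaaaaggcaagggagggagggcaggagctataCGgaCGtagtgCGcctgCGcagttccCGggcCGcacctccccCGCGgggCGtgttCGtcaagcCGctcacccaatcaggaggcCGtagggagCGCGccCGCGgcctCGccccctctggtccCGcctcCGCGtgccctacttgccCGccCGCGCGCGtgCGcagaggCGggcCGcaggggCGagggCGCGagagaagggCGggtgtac
Rab1b: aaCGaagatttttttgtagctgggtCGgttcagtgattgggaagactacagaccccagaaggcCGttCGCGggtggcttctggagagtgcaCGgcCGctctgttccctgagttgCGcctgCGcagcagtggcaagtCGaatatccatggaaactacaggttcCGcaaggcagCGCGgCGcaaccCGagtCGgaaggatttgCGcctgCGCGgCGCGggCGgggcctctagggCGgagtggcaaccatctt
Rab2b: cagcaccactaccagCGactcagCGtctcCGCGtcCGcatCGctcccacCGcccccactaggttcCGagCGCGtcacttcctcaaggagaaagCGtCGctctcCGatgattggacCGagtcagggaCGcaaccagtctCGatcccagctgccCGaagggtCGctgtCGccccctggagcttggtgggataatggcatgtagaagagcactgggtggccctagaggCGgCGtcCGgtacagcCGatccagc
Rab9: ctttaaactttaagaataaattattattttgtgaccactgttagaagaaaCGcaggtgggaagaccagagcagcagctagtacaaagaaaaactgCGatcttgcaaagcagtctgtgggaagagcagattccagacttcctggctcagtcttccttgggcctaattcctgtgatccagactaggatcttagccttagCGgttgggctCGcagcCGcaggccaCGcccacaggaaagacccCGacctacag
Rab25: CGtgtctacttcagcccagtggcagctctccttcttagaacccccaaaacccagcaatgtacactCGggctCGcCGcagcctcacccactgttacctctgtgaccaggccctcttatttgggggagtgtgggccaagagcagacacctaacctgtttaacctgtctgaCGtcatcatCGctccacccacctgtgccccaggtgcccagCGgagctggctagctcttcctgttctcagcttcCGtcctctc
Rab42: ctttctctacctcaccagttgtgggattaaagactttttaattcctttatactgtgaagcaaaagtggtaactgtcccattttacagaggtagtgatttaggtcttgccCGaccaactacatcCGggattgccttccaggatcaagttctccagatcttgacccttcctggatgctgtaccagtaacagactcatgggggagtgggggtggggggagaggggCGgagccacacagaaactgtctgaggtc

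Rab10 held 34 CG dinucleotides in its window, Rab1b and Rab2b 23 each, Rab25 8, Rab9 7 and Rab42 3. Some members departed from this order: Rab11b, at a signal of 9.61 (5.24 on its further row), held 9, and Rab39, at 3.91, held 18. Letters were searched on both strands in the 250 bases. GGGCGG, the box bound by Sp1-like factors, was in a window of 36 of the 48 Rab genes (75.0%) and in 66.7% of their 60 windows, against 32.7% of all windows. CCAAT, the box of the factor NF-Y, was in a window of 24 genes (50.0%) and in 40.0% of their windows, against 33.8% of all. TATAAA was in 4 genes (8.33%) and 6.67% of the Rab windows, against 12.4% of all windows. CACGTG, a core bound by the lysosomal factor TFEB and others, was in 5 genes (10.4%) and 8.33% of the Rab windows, against 6.02% of all windows. Among the 15 matched genes with their lowest values on controls 1 and 4, a set formed after the values were seen, CCAAT was in 11 and CACGTG in 2. Of the 22 other bright ones 10 and 1 held them, and of the 11 dim ones 3 and 2. TGACGT, the core of cyclic AMP response elements, was in 7 of the 48 genes (14.6%) and 11.7% of the Rab windows, against 6.47% of all windows. In the same sets of 15, 22 and 11 genes GGGCGG was in 13, 17 and 6, TATAAA in 1, 2 and 1, and TGACGT in 3, 2 and 2. These matches are descriptions and no test was made.

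**Figure D5:**
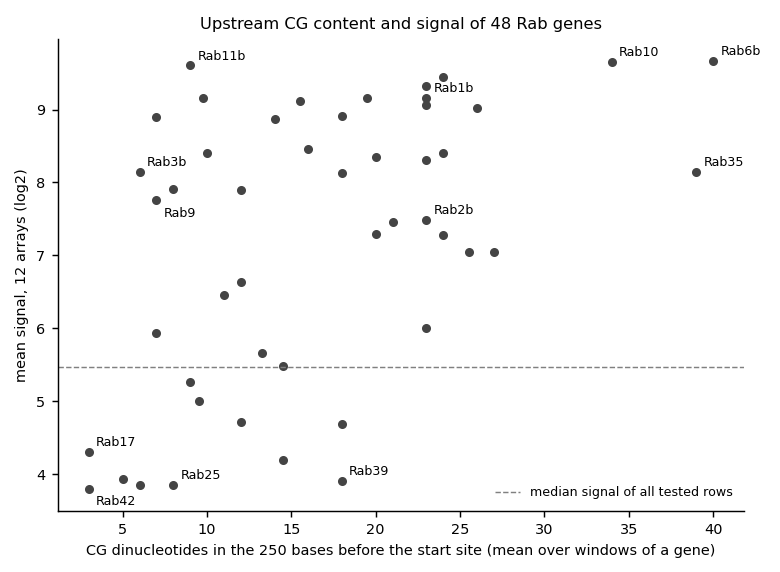
Mean log2 signal of 48 Rab genes over the 12 arrays (vertical) against the number of CG dinucleotides in the 250 bases before the start site (horizontal), with 1 point a gene and the median signal of all rows as a dashed line. Rab6b and Rab10 lie at the upper right, Rab42 and Rab17 at the lower left, and Rab11b and Rab39 off this diagonal.

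Genes that load, switch and read Rabs were measured beside them, from lists chosen with earlier results of these data known. Of 121 such genes 0 had an adjusted p under 0.05, and 27 (22.3%) had an unadjusted p under 0.05, against 14.4% of all rows. Of these 27 the poly(I:C) mean was the higher one for 20 and the lower one for 7. Over all rows 7.83% were higher and 6.57% lower at that threshold. When controls 4 and 6 were left out it was 13 (10.7%, against 8.33% of all rows), and in the fit that adjusts for the 3 tissue means 14 (11.6%, against 9.20%). Among rows at or above the median signal alone it was 16 of 99 (16.2%, against 17.8% of those rows). Of 7 genes for prenylation and membrane extraction 2 (28.6%) had an unadjusted p under 0.05, both higher. They were Gdi2, a dissociation inhibitor, with a log2 difference of 0.15, and Rabggta, a subunit of the geranylgeranyl transferase, with 0.078. Gdi2 was at 8.48 and 8.42 on controls 1 and 4 and between 8.66 and 8.86 on all other arrays, and without those controls its difference was 0.061.

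Of 32 exchange factors 8 were higher and 1 lower at an unadjusted p under 0.05 (28.1% together, against 14.4% of all rows). Dennd6b, an exchange factor for Rab14, stood at 7.59 ± 0.16 in poly(I:C) offspring and 7.34 ± 0.074 in controls (SD, n = 6 each), or 0.24 more on the log2 scale (95% interval 0.10 to 0.39, limma adjusted p = 0.148). Dennd2a was at 0.19, Trappc10, a subunit of the TRAPPII complex, at 0.11, Dennd4b at 0.10 and Rin1, a Rab5 exchange factor of neurons, at 0.15. The lower one was Rin2, at -0.13, named after its value was seen.

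Of 37 GTPase-activating proteins 6 were higher and 2 lower at that threshold (21.6% together, against 14.4% of all rows). Groups did not overlap for 2 of them, which were the only 2 among the 121 genes, where 1.13% of all rows showed this. Tbc1d22b stood at 7.68 ± 0.087 in poly(I:C) offspring and 7.48 ± 0.074 in controls (SD, n = 6 each), or 0.20 more on the log2 scale (0.097 to 0.30, limma adjusted p = 0.104). Tbc1d24, which is needed for synaptic vesicle traffic, was at 0.21 and Sgsm3 at 0.15. Tbc1d4, which holds back Rab10 in insulin-responsive cells, had 5.54 to 5.74 in poly(I:C) offspring and 5.75 to 6.17 in controls, with no overlap and a difference of -0.22 (limma adjusted p = 0.187). Tbc1d25, a regulator of Rab33b in autophagy, had 5.91 to 6.07 in poly(I:C) offspring and 5.81 to 5.90 in controls, also with no overlap and a difference of 0.11 (limma adjusted p = 0.198).

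Of 45 effectors 4 were higher and 4 lower at that threshold (17.8% together, against 14.4% of all rows). Micall1, which binds Rab8 and Rab35 on recycling tubules, stood at 5.69 ± 0.069 in poly(I:C) offspring and 5.91 ± 0.11 in controls (SD, n = 6 each), which is a difference of -0.22 (-0.33 to -0.11, limma adjusted p = 0.104). The synaptotagmin-like Sytl2 and Sytl4, effectors of Rab27, were both at -0.18. Rab11fip2, which links Rab11 to myosin V, and Vps41, a subunit of the HOPS complex that Rab7 recruits, were both at 0.16, and at 0.046 and 0.058 without controls 1 and 4. The median log2 difference over all 121 genes was 0.029, and 0.0050 without controls 1 and 4.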

How the data were processed

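Per the labels' protocols, RNA of the micro-dissected accumbens was hybridised to Affymetrix arrays, 1 for each of 12 samples. The authors deposited 1 log2 value per row and array, made with RMA and Partek 6.6 per the submitters' processing notes. RMA gives all arrays nearly the same distribution, which would hide a shift common to most rows. For its settings and the build, the sources used here give nothing. Rows were named from the platform annotation: of 35556 rows 21218 had 1 symbol, 1881 several and 12457 none. The 58 symbols matched the RefSeq table of GRCm38.p6 by gene identifier.

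All rows with 1 symbol were fitted with limma 3.58.1 in R 4.3.3 (lmFit, eBayes, exposure as the only term, 10 residual and 3.94 prior degrees of freedom, two-sided, Benjamini-Hochberg over 21218 rows). Neither a filter nor a further normalization was used. Every difference is the poly(I:C) mean less the control mean, in log2 units. The fit was checked on simulated data. For arrays their number limits the precision. Batch and litter could not be entered. Upstream sequences come from the RefSeq promoter table.

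Named members are those with an unadjusted p under 0.05, the 5 of highest and lowest signal, the brightest member and the one of smallest p of each role, and up to 5 genes of each pathway list by p. Other members and genes named were added after their values were seen. The members, roles and lists were chosen with earlier results of these data known. The alternatives are given in the closing section.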

Additional observations from a re-analysis of the deposited data

Results flagged for a closer look

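In each group of 6 arrays, the highest or lowest value of a member was compared with its nearest neighbour, and a gap that exceeded Dixon's critical share of the group's whole range marked it. Of 116 such groups 7 were marked, and chance alone marks about 1 in 20. In poly(I:C) offspring the low array was poly(I:C) 6 for Rab8a (7.88, the others 8.17 to 8.18), Rab3a (8.84, the others 9.15 to 9.24), Rab3b (7.81, the others 8.26 to 8.49) and Rab5b (8.65, the others 8.84 to 8.95), and poly(I:C) 3 for Rab1b (9.16, the others 9.26 to 9.32) and Rab43 (5.47, the others 5.63 to 5.72). Among controls it was control 4 for Rab4b (8.11, the others 8.27 to 8.35). The low values of Rab2b and Rab1b on both control 1 and control 4 were not marked, since each lies near the other.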

How the results depend on the processing

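With 23 alternative settings, 0 members had an adjusted p under 0.05 in any of them, and the lowest adjusted p of a member was 0.0971, without control 3. With 1 array left out, 2 to 8 members were higher and 1 to 5 lower at an unadjusted p under 0.05, 0 to 2 and 0 to 1 had groups that did not overlap (higher and lower), and 15 to 31 of the 121 pathway genes (12.4% to 25.6%) had an unadjusted p under 0.05, where the share of all rows ran from 11.0% to 17.1%. Higher members numbered 8 without poly(I:C) 6 and 2 without poly(I:C) 1 or control 4, lower ones 5 without poly(I:C) 2 and 1 without poly(I:C) 5 or control 6, and pathway genes 15 without poly(I:C) 4 and 16 without poly(I:C) 3 or control 4. Leaving out controls 4 and 6 gave 0 higher members, 1 lower without overlap and 13 pathway genes. In that setting 8.33% of all rows had an unadjusted p under 0.05. Leaving out controls 1 and 4 gave 1 lower without overlap. The 3 tissue means as covariates gave 1 higher member and 14 pathway genes, where 9.20% of all rows had an unadjusted p under 0.05. Rows at or above the median signal alone gave 1 lower member and 16 pathway genes, of fewer tested, where 17.8% of those rows had one. Shares of all rows by direction or without overlap are not given for these settings. The 21 named members had 497 values, a count that includes their values in the main fit. Of these, 28 differed in sign from the main fit, none of them with an adjusted p under 0.05. With array weights these were Rab15 (0.00052) and Rab19 (0.0051), and with a repeated quantile normalization Rab19 (1.39e-06) and Rab42 (0.00997). With the 3 tissue means they were Rab3a (-0.10), Rab38 (0.019) and Rab39 (-0.055), without controls 4 and 6 Rab38 (0.027) and Rab39 (-0.033), and without controls 1 and 4 Rab7 (-0.014), Rab11b (-0.0011), Rab15 (0.040), Rab19 (0.020) and Rab38 (0.0098). With 1 array left out the difference ran between -0.030 and 0.044 for Rab39, -0.023 and 0.014 for Rab42, -0.0015 and 0.079 for Rab3a, -0.070 and 0.015 for Rab15, -0.035 and 0.0014 for Rab19, and -0.041 and 0.012 for Rab38. The causes were not tested. The replicate numbers showed no pairing of the arrays over all rows, which does not prove that there was none. Deviations of same-numbered arrays of the groups correlated from -0.20 to 0.27, and those of unequal number from -0.32 to 0.36. Of 12 arrays 2 correlated best with their own number. With the replicate block 5 members were higher and 2 lower at an unadjusted p under 0.05.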

Other observations

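Rows left out of the members carried related values. The further row of Rab2a gave a log2 difference of 0.048 (95% interval -0.061 to 0.16), that of Rab11b 0.064 and that of Rab5b -0.056, each with the sign of the row used. On the row shared by Prelid1 and Rab24 the mean was 9.23 ± 0.12 in poly(I:C) offspring and 9.08 ± 0.13 in controls (SD, n = 6 each), a difference of 0.15 (0.0076 to 0.30), and this row cannot tell the genes apart. The row shared by Mrpl48 and Rab6a gave 0.17 (-0.039 to 0.39) and that shared by Rab26 and Traf7 0.063 (-0.17 to 0.29).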
